A study of Penicillium oxalicum with 6 samples.

Results

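In Penicillium oxalicum, a filamentous fungus that secretes enzymes degrading plant polysaccharides, 141 genes, out of 9137 with a value in any library, crossed 1 FPKM upwards in the mutant lacking PoxTMA7. FPKM is the number of sequenced fragments scaled to the length of the gene and to the depth of the library. A gene was a member if it was under 1 FPKM in all 3 wild-type (WT) libraries and at least 1 FPKM in all 3 mutant libraries, with a gene not listed in a library taken as 0. The members were thus chosen on the difference between the genotypes, and that difference is given here as a description, with no test. In all, 2477 genes were under 1 FPKM in every WT library, and the members were 5.69% of these.

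Both groups were mycelium, and the series names the strain HP7-1. The mutant (ΔPoxTMA7) is labelled as a knockout of PoxTMA7 in WT, and WT carries no labelled change. Strains grew on potato dextrose agar plates for 4 days at 28 °C, and their spores were kept in glucose medium for 24 h before transfer to the test medium for another 24 h. The treatment label names 1% Avicel (microcrystalline cellulose) for that medium in both groups, whereas the protocol text names raw starch; which of them applies was not settled. The stated purpose of the comparison was to learn how PoxTMA7 acts on cellulase and xylanase output. The labels do not say how many transformants were used or whether the 3 libraries of a genotype came from separate cultures, so the spread between them may be technical.

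TMA7 of baker's yeast, whose name PoxTMA7 carries, is a small protein found with ribosomes (TMA stands for translation machinery associated). Filamentous fungi keep many genes at very low transcript levels in any one medium, among them genes for other carbon sources, for development and for secondary metabolites. In bulk RNA a low level can mean few transcripts in every cell or more transcripts in few cells, and these cannot be told apart here. The tables carry identifiers alone, and none of the 9137 identifiers matched the reference table (assembly ASM172317v3). Members are therefore given by identifier, with no function, and PoxTMA7 itself could not be checked in the libraries.

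Most members were weakly expressed in WT rather than silent, and most stayed weakly expressed in the mutant. The label under which they were grouped, near-silent genes switched on, fits few of them. The median over members was 1.29, 1.6 and 1.92 FPKM in ΔPoxTMA7 replicates 1, 2 and 3, against 0.666, 0.611 and 0.649 FPKM in WT replicates 1, 2 and 3. Whole reads, recovered from the steps between FPKM values, numbered 29 to 4389 per member and mutant library, with a median of 85, and 2 to 155 per member and WT library, with a median of 29. Counting error alone puts the limit of detection at 3 reads, which at the median member length is 0.0451 to 0.0707 FPKM in the mutant and 0.0568 to 0.0804 FPKM in WT. Of the 141 members, 114 averaged at least 0.5 FPKM in WT and 3 averaged under 0.25 FPKM.

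**Figure D1:**
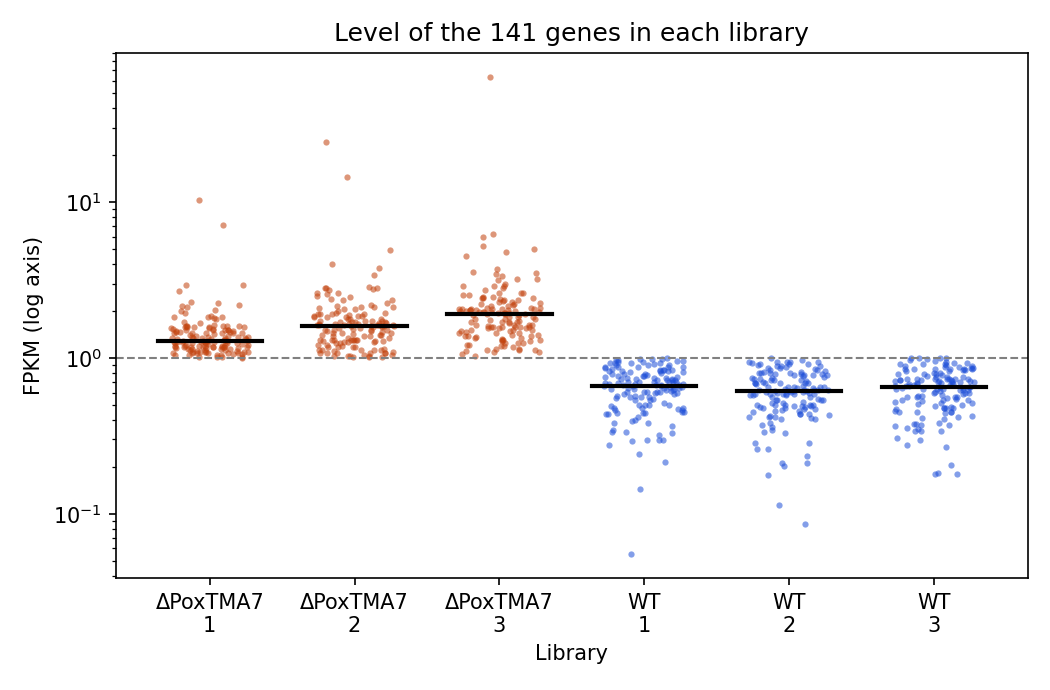
FPKM (log axis) of the 141 members in each of the 6 libraries, with one point per gene, a bar at the median and a dashed line at 1 FPKM, the threshold of the rule. Medians lie at 1.29 to 1.92 FPKM in ΔPoxTMA7 and at 0.611 to 0.666 FPKM in WT, and one gene stands far above the rest in the mutant.

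The typical member was higher in the mutant by between 2-fold and 4-fold. Mean levels had a median of 1.57 FPKM in ΔPoxTMA7 and 0.659 FPKM in WT. The ratio of the mutant mean to the WT mean had a median of 2.58, with quartiles of 2.09 and 3.22. It was under 2 in 29 members, between 2 and 4 in 93, between 4 and 10 in 14 and at least 10 in 5. Levels in the mutant stayed modest: 112 members averaged under 2 FPKM, 7 averaged at least 3 FPKM and 1 averaged at least 10 FPKM. Together the members made up 0.0727%, 0.0925% and 0.123% of all reads in ΔPoxTMA7 replicates 1, 2 and 3, against 0.0313%, 0.0295% and 0.0307% in WT replicates 1, 2 and 3.

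The threshold lay inside the counting error for most members. Since the rule demands it, no member's groups overlapped; all 3 mutant values lay above all 3 WT values in 38.6% of the 6743 genes tested below. The lowest mutant value exceeded the highest WT value by a median factor of 1.75, and by at least 2 in 53 members. In 83 members the 95% Poisson interval of the lowest mutant value reached below 1 FPKM, and in 85 the interval of the highest WT value reached 1 FPKM. These exact intervals cover counting error only. In 19 members (13.5%) neither interval reached the threshold. Just inside the rule, the lowest mutant value was 1.001 FPKM in POX_1g00495 and 1.008 FPKM in POX_2g03152, and the highest WT value was 0.9992 FPKM in POX_7g09718 and 0.9988 FPKM in POX_7g09854. Just outside it, POX_6g08209 and POX_6g08990 missed with a lowest mutant value of 0.9859 and 0.9819 FPKM, and POX_4g06374 and POX_2g03004 with a highest WT value of 1 and 1.002 FPKM. Each of these genes met or missed the threshold by less than its counting error.

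One member, POX_6g08128, stood apart from all others. It had 10.4, 24.4 and 63.7 FPKM in ΔPoxTMA7 replicates 1, 2 and 3, against 0.343, 0.114 and 0.422 FPKM in WT replicates 1, 2 and 3. The groups lay far apart, and the mutant libraries themselves differed 6.12-fold, the widest range among the members. The means were 32.8 ± 27.6 FPKM in ΔPoxTMA7 and 0.293 ± 0.16 FPKM in WT (SD, n = 3 each), a ratio of 112. These levels rest on 587, 2162 and 4389 reads in the mutant libraries and on 17, 8 and 25 reads in the WT libraries.

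POX_6g07972 was the next most abundant member, and the identifiers on both sides of it were higher in the mutant too. It had 7.18, 14.5 and 5.98 FPKM in ΔPoxTMA7 replicates 1, 2 and 3, against 0.587, 0.751 and 0.516 FPKM in WT replicates 1, 2 and 3. Replicate 2 was the highest mutant library. The identifier before it, POX_6g07971, had 324, 716 and 303 FPKM in those mutant libraries and 12.5, 10.3 and 10.5 FPKM in those WT libraries. The identifier after it, POX_6g07973, had 9.85, 16.8 and 6.13 FPKM in the mutant and 1.87, 2.2 and 1.63 FPKM in WT. All 3 identifiers had their highest mutant value in replicate 2. Whether reads of one are counted in another was not tested, and that identifiers follow the order along the genome is assumed.

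A further 4 of the 6 most abundant members averaged 3 to 5 FPKM in the mutant. POX_6g07997 had 2.95, 4.92 and 5.23 FPKM in ΔPoxTMA7, against 0.829, 0.479 and 0.569 FPKM in WT, a ratio of means of 6.98. POX_5g06842 had 1.69, 3.76 and 6.22 FPKM in ΔPoxTMA7, against 0.297, 0.498 and 0.373 FPKM in WT, a ratio of 10. Both were lowest in mutant replicate 1 and highest in mutant replicate 3. POX_4g05856 had 2.25, 4.03 and 3.71 FPKM in ΔPoxTMA7, against 0.674, 0.936 and 0.585 FPKM in WT, a ratio of 4.55. POX_5g06684 had 1.62, 2.85 and 5.04 FPKM in ΔPoxTMA7, against 0.0549, 0.213 and 0.207 FPKM in WT. Its ratio of means was 20.0 and its WT level rests on 2, 11 and 9 reads, so its WT value in replicate 1 is below the limit of 3 reads.

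Few members came close to silence in WT. POX_8g10305, with the lowest WT mean of all members, had 1.11, 1.73 and 2.06 FPKM in ΔPoxTMA7, against 0.145, 0.0856 and 0.183 FPKM in WT. The means were 1.63 ± 0.482 FPKM in ΔPoxTMA7 and 0.138 ± 0.0491 FPKM in WT (SD, n = 3 each), and the WT values rest on 6, 5 and 9 reads. Its lowest mutant value was 6.06 times its highest WT value. POX_6g08148 was the steadiest of the named members in the mutant, at 1.57, 1.55 and 1.52 FPKM, against 0.216, 0.421 and 0.181 FPKM in WT. Its mutant libraries differed 1.03-fold, the mean mutant level being 5.66 times the mean WT level.

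**Figure D2:**
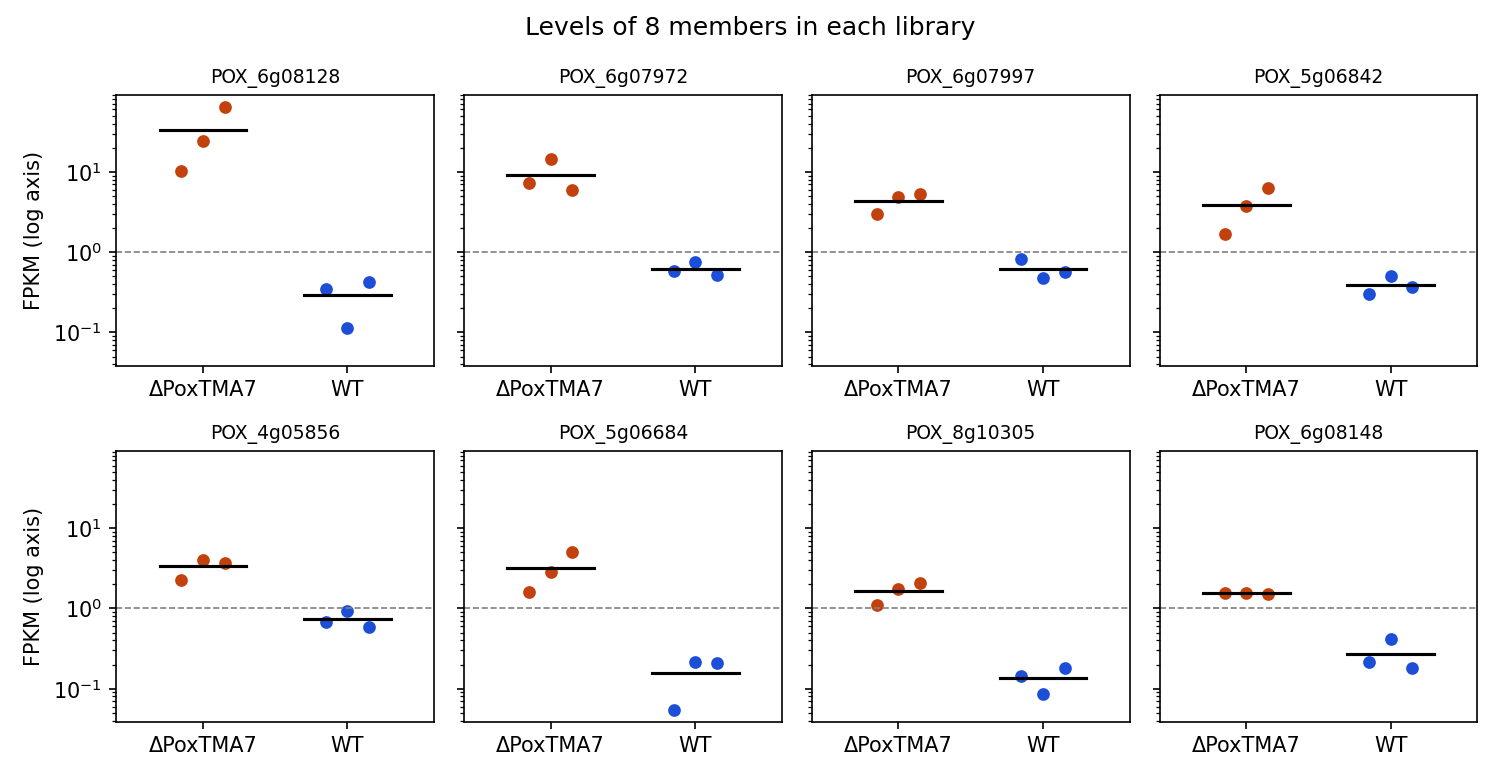
FPKM (log axis) of 8 members in the 3 ΔPoxTMA7 libraries (left in each panel) and the 3 WT libraries (right), replicates 1 to 3 from left to right, with bars at the means and a dashed line at 1 FPKM. POX_6g08128 reaches 63.7 FPKM in mutant replicate 3, while POX_8g10305 and POX_6g08148 stay near 1 to 2 FPKM in every mutant library.

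A stricter form of the rule kept a small group. Under 1 FPKM in all WT libraries and at least 2 FPKM in all mutant libraries, 11 of the 141 members remained. Besides POX_6g08128, POX_6g07972, POX_6g07997 and POX_4g05856 these were POX_1g00627, POX_1g00862, POX_1g01447, POX_1g01508, POX_2g03496, POX_5g07505 and POX_7g09382. The last 7 averaged 2.21 to 2.91 FPKM in ΔPoxTMA7 and 0.772 to 0.955 FPKM in WT. POX_1g00862 was the tightest case, with 2.95, 2.78 and 3 FPKM in ΔPoxTMA7, against 0.927, 0.941 and 0.996 FPKM in WT. Its ratio of means was 3.05, whereas its mutant libraries differed 1.08-fold.

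The mutant libraries differed from each other over the members. Replicate 1 had the lowest mutant value in 99 of the 141 members (70.2%) and replicate 3 the highest in 100 (70.9%). In 78 members (55.3%) the values ran upwards through replicates 1, 2 and 3, which have no order of their own. The share of other genes with that full order was not computed, so nothing is read from it about the members. The other 1941 genes that were higher in the mutant by the test below had replicate 1 lowest in 67.2% and replicate 3 highest in 76.1%. Over all 6743 genes tested these shares were 40.9% and 54.3%. The difference between the sets was not tested. Leaving out replicate 1 of the mutant, 208 genes met the rule.

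The highest of the 3 values was at least 2 times the lowest in 17 members in ΔPoxTMA7 and in 10 members in WT. These spreads are not compared, since the rule caps every WT value at 1 FPKM and sets no upper limit on the mutant values.

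The rule applied to 5 libraries was read in the sixth, which it had not used. Genes that also met it there are the 141 members by definition. Each share below thus restates how many genes met the rule in 5 libraries, and no share of other genes was set beside it. With ΔPoxTMA7 replicate 1 left aside, 141 of 208 genes (67.8%) reached 1 FPKM in it. For ΔPoxTMA7 replicates 2 and 3 the shares were 86.5% of 163 genes and 95.3% of 148 genes. With WT replicates 1, 2 and 3 left aside, 82.9% of 170, 88.7% of 159 and 86.5% of 163 genes were under 1 FPKM in the unused library.

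The members sat at the upper edge of the genes that were weak in WT. A gene closer to 1 FPKM in WT needs a smaller rise to meet the rule. The shares of members in the bins below are therefore a description of the rule, and nothing is read from their order. Among genes under 1 FPKM in all WT libraries, the rule took 0 of 1140 with a WT mean under 0.1 FPKM and 3 of 515 with a mean from 0.1 to 0.25 FPKM. It took 5.36% of the 448 genes from 0.25 to 0.5 FPKM, 27.5% of the 280 genes from 0.5 to 0.75 FPKM and 39.4% of the 94 genes above. Over all genes of a bin, members included, the median ratio of mutant to WT mean was 1.47, 1.46, 1.44 and 1.21 in the bins that start at 0.1, 0.25, 0.5 and 0.75 FPKM; no ratio was computed for the 1140 genes under 0.1 FPKM. These genes were chosen for low WT values, so the ratios are a description. All 3 mutant values lay above all 3 WT values in 718 of the 2477 weak genes (29%), against 38.6% of all genes tested. The 2477 include the 1140 genes under 0.1 FPKM, for which no separate share was computed. In the bins that start at 0.1, 0.25, 0.5 and 0.75 FPKM the share was 35.1%, 40.2%, 45.4% and 42.6%. All 3 mutant values lay below all 3 WT values in 6.99%, 10%, 11.4% and 7.45% of these bins. For this direction no share of all genes tested was computed. The values are FPKM without further scaling, and the balance of directions over all genes depended on the scaling. No trait of weak genes is therefore read from these shares.

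**Figure D3:**
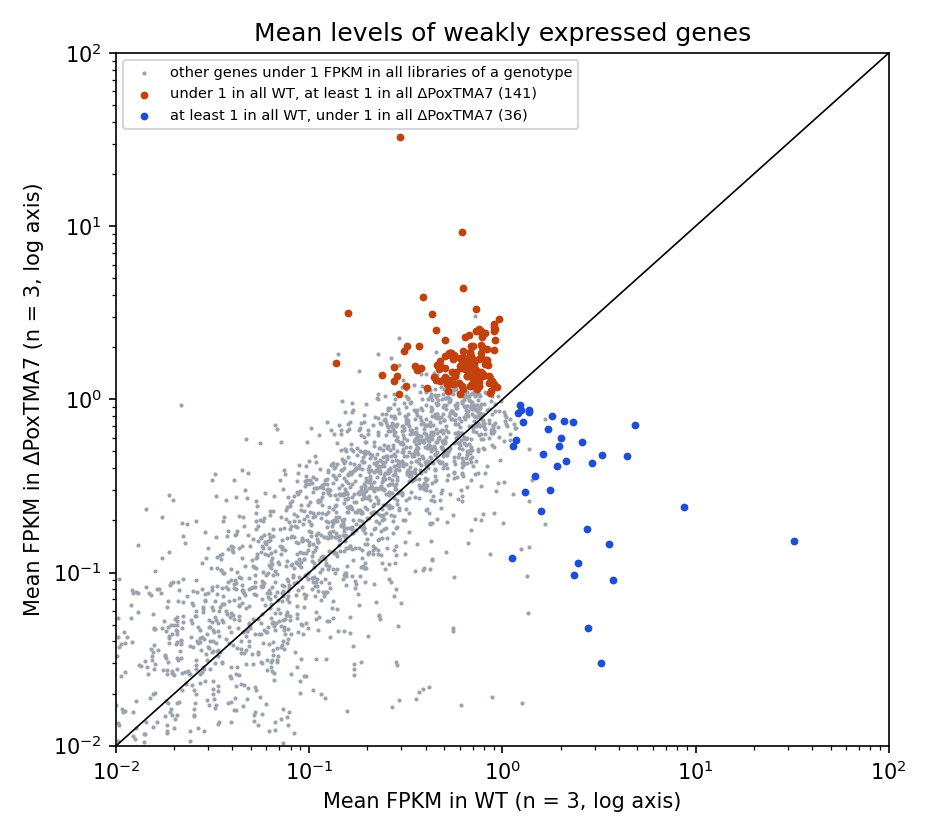
Mean FPKM in ΔPoxTMA7 (vertical) against mean FPKM in WT (horizontal), both log axes, n = 3 libraries each, for genes under 1 FPKM in all libraries of at least one genotype; genes with a mean under 0.01 FPKM in either are not drawn. The 141 members continue the upper edge of the grey cloud, with few points far above it, while the 36 genes of the opposite rule include some far below the diagonal.

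Set against the opposite rule, the crossing was mostly upwards, but this balance depended on the scaling. Genes at least 1 FPKM in all WT libraries and under 1 FPKM in all mutant libraries numbered 36, or 1.63% of the 2211 genes under 1 FPKM in all mutant libraries. Both sets were chosen on these values, in FPKM without further scaling, so the depth of their changes is compared as a description only. The changes of the 36 genes were deeper, with a median mutant level of 0.217 times the WT level, and 21 of the 36 were at or under 0.25 times it. POX_4g05484 led them, with 0.152, 0.125 and 0.178 FPKM in ΔPoxTMA7, against 28.1, 46.4 and 22.2 FPKM in WT. POX_3g04419 followed, with 0.175, 0.202 and 0.338 FPKM in ΔPoxTMA7, against 10.5, 7.38 and 8.29 FPKM in WT. With the gap from under 1 to at least 2 FPKM, 11 genes crossed upwards and 10 downwards. Median-ratio scaling, which centres the typical gene, gave 112 upwards and 48 downwards, and quantile normalization gave 77 and 72. Every one of those 112 and of those 77 genes was among the 141.

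**Figure D4:**
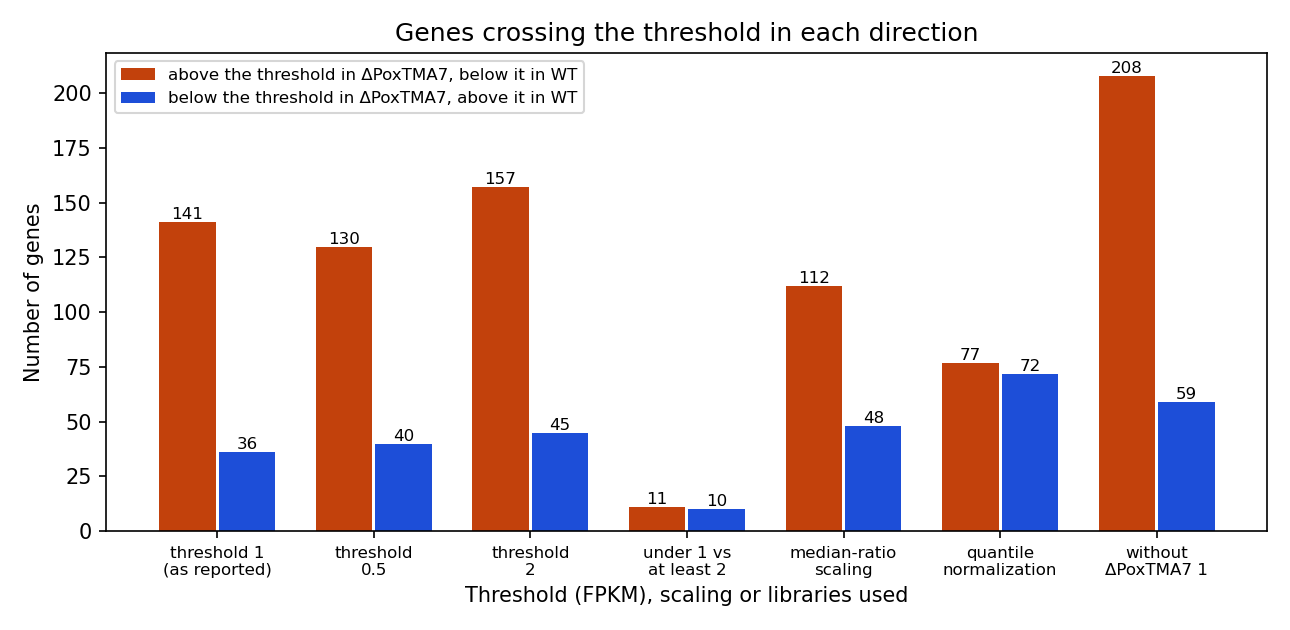
Number of genes crossing the threshold upwards (left bar of each pair) and downwards (right bar) in ΔPoxTMA7 against WT, under the reported rule, other thresholds in FPKM, other scalings and without ΔPoxTMA7 replicate 1. The excess of upward crossings, 141 against 36 as reported, is 77 against 72 with quantile normalization and 11 against 10 with the wider gap.

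Across all genes, limma on log2(FPKM + 1) called 2075 genes higher and 1163 lower in ΔPoxTMA7 at an adjusted p under 0.05, out of the 6743 that reached 1 FPKM in 3 or more libraries. With median-ratio scaling these counts were 1494 and 1759, and with quantile normalization 1681 and 1444. All 141 members passed that filter by construction, through their mutant values. Of them 134 were called higher, against 30.8% of all genes tested; since the rule used the same contrast, nothing is read from that count. The median log2 change was 0.66 over the members, from 0.16 to 4.37, and 0.11 over all genes tested, with both understated for low genes by the added 1. With median-ratio scaling the medians were 0.6, over the 130 members that still passed the filter, and -0.03.

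Members were spread over the identifiers. The number before the letter g runs from 1 to 8 for nearly all genes, and its meaning is not stated in the labels or tables. Of the genes under 1 FPKM in all WT libraries, between 3.9% (group 5, 11 members) and 8.7% (group 8, 12 members) were members; group 6, which holds the 3 most abundant members, had 22, or 6.43%. Members formed 3 pairs of consecutive identifiers, and the number that random placement would give was not computed. In the pair POX_6g08147 and POX_6g08148, the first had 1.43, 1.52 and 2.05 FPKM in ΔPoxTMA7, against 0.748, 0.623 and 0.727 FPKM in WT. POX_8g10100 and POX_8g10101 averaged 1.65 ± 0.274 and 1.41 ± 0.375 FPKM in ΔPoxTMA7, against 0.711 ± 0.115 and 0.789 ± 0.156 FPKM in WT (SD, n = 3 each). POX_1g01456 and POX_1g01457 averaged 1.09 ± 0.0523 and 1.18 ± 0.0954 FPKM in ΔPoxTMA7, against 0.863 ± 0.125 and 0.904 ± 0.0767 FPKM in WT (SD, n = 3 each). Both are near the threshold, and with quantile normalization their log2 changes were -0.03 and 0.

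Calls among the genes next to members were counted as well. Of the tested genes 1 identifier before a member 41.2% were called higher, and of those 1 identifier after it 41.9%, against 30.8% of all genes tested. At 2 identifiers before and after, the shares were 39.7% and 30.8%, and at 3 identifiers 26.6% and 31.8%. The genes counted include members themselves, 3 at each distance of 1 or 2 identifiers and 2 at each distance of 3. These shares are descriptions, since neighbouring genes can share reads, and their difference from all genes was not tested. The identifier before POX_6g08128 was listed in mutant replicate 1 alone, at 0.0218 FPKM, and POX_6g08130, 2 identifiers after it, averaged 0.135 FPKM in ΔPoxTMA7 and 0.227 FPKM in WT.

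Gene lengths that make the recovered reads whole had a median of 3199 bp over the members, with quartiles of 2499 and 3890 bp. The other genes under 1 FPKM in all WT libraries had a median of 2825 bp, and all genes 3589 bp. Which sequence these lengths cover is not stated in the labels or tables. The shortest length that made the reads whole was taken, so genes with few reads can appear too short. Whether the members are longer than other weak genes was therefore not tested.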

How the data were processed

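Poly(A)-selected RNA from 3 ΔPoxTMA7 and 3 WT libraries was sequenced. Per the file headers, the authors deposited FPKM by gene identifier in 1 table a library. The submitters' processing notes name bcl2fastq; aligner, counting tool, genome build and strandedness: not given in the sources used here. The tables were joined by identifier; no table listed a 0.

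Whole reads were recovered from the FPKM steps: the value of 1 read was compared between libraries on genes under 0.15 FPKM, and the library total was taken that makes gene lengths whole (99.3% of 600 genes, within 0.02 bp). Totals were 11665908 to 20808413 reads. Reads over genes, within 0.01 of whole numbers, summed to 99.6% to 99.7% of them. Genes with few reads can be recovered too low by a common factor.

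Genes that reached 1 FPKM in 3 or more libraries were fitted with limma 3.58.1 (R 4.3.3), as log2(FPKM + 1) (genotype as the factor, empirical Bayes with trend, two-sided, Benjamini-Hochberg over all genes tested); the script was tested on simulated data. SciPy 1.17.1 under Python 3.11.15 gave the other values. Members, gene groups and the comparisons made were chosen with earlier results of these data known. Members were named by a rule of level, separation, range, consecutive identifiers and closeness to the threshold; the members of the stricter rule were named in full after their values were seen, as were neighbouring genes. Alternatives changed the threshold, scaling, pseudocount, filter, replicate block, fit and libraries.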

Additional observations from a re-analysis of the deposited data

How the results depend on the processing

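The number of members, 141, lay within 1.5 times of the reported value with thresholds of 0.5 FPKM (130 genes, 19 of them shared) and 2 FPKM (157 genes, 11 shared) and with median-ratio scaling (112). It was 77 with quantile normalization and 11 with the gap from under 1 to at least 2 FPKM, a stricter rule by construction. The 36 genes of the opposite rule became 72 and 10 under these 2 settings; the cause was not tested for the normalization. With median-ratio scaling, which moved the median of all genes from 0.11 to -0.03 (log2), 1759 genes were called lower, against 1163 as reported. Leaving out 1 library gave 148 to 208 members, the most without ΔPoxTMA7 replicate 1, and 38 to 59 genes of the opposite rule, again the most without that library; fewer libraries make either rule easier to meet. Genes called by limma stayed within 1.5 times of 3238 under every alternative run, at 2188 to 3869 when 1 library was left out, and members called higher numbered 95 (quantile normalization, where 115 members passed the filter) to 134. With the replicate block 2995 genes were called, 1901 of them higher, and 131 members were called higher. Over all genes tested, 1681 were called higher with quantile normalization and 2075 (30.8%) as reported. Since the members were chosen on this contrast, nothing is read from the counts of members called. Libraries were not treated as paired, since the replicate is given as a number only. Libraries that share a number deviated from their group means with correlations of 0.0219, 0.0328 and 0.173. For mutant and WT libraries with unlike numbers the correlations ran from -0.152 to 0.0915. Of 244 refits of the log2 change of 19 named genes, 234 were counted as keeping direction and side of the threshold. These 234 include POX_1g01457 with quantile normalization, where the change was 0. In 9 refits the call was lost and in 1 the sign changed (POX_1g01456, -0.03 with quantile normalization). The 9 belonged to POX_8g10101 and POX_2g03152, both near 1 FPKM. A further 3 refits gave no value because the gene no longer passed the filter on low values: POX_1g00495 with median-ratio scaling and with quantile normalization, and POX_2g03152 with quantile normalization. Depth limits WT values: the members' WT reads summed to a median of 83 over the 3 libraries.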

Other observations

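One member, POX_4g05482, lies 2 identifiers before POX_4g05484, the gene with the highest WT mean under the opposite rule. It had 1.37, 1.62 and 2.07 FPKM in ΔPoxTMA7, against 0.751, 0.619 and 0.75 FPKM in WT. The identifier between them, POX_4g05483, had 0.995, 1.24 and 1.23 FPKM in ΔPoxTMA7, against 4.75, 9.67 and 4.74 FPKM in WT. After POX_4g05484, the gene POX_4g05485 had 6.72, 7.89 and 7.04 FPKM in ΔPoxTMA7, against 6.03, 5.74 and 5.76 FPKM in WT. Within these 4 identifiers the levels thus differ in both directions. The group was looked at after its values were seen, and whether the deleted gene lies there could not be told from the files.

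POX_4g05857, the identifier after the member POX_4g05856, ran the opposite way, with 0.14, 0.178 and 0.261 FPKM in ΔPoxTMA7, against 0.545, 1.32 and 1.16 FPKM in WT. The identifiers on either side of this pair, POX_4g05855 and POX_4g05858, averaged 25.7 ± 2.18 and 19.2 ± 1.66 FPKM in ΔPoxTMA7, against 16.6 ± 1.22 and 9.8 ± 0.402 FPKM in WT (SD, n = 3 each). This group, too, was picked after its values were seen.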
